A study of Mus musculus with 12 samples.

Results

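Open chromatin was described at 5 genes that keep T cells naive and quiescent, Satb1, Bach2, Tcf7, Lef1 and Foxp1, in CD4+ T cells from the spleen of mice. The members were chosen by position: every open region that overlapped a stretch set around each gene was taken, whatever its values. This gave 184 of the 40457 open regions of the whole series, 35 at Satb1, 44 at Bach2, 22 at Tcf7, 31 at Lef1 and 52 at Foxp1. Of the 184, 52 were seen in 1 library alone, and the other 132, each seen in 2 or more, were compared between groups. Each stretch also holds flanking sequence, so a region in it may belong to a neighbouring gene. In RefSeq order the neighbours are Tbc1d5 and Kcnh8 for Satb1, Map3k7 and Gja10 for Bach2, Skp1 and Vdac1 for Tcf7, Rpl34 and Hadh for Lef1, and Gm765 and Eif4e3 for Foxp1.

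The assay was ATAC-seq, in which a transposase cuts accessible DNA and the cuts are collected into peaks. There were 4 groups of 3 libraries: Treg and Tconv from mice with the Lrrc32+ 70k enhancer KO genotype, and Treg and Tconv from WT mice. All mice carried a Foxp3-IRES-EGFP reporter, and the 100000 cells of each library were sorted as GFP-positive Treg, the regulatory cells that hold immune responses in check, or GFP-negative Tconv, the conventional CD4+ cells. The labels give no age or sex and do not say whether each library came from its own animal, so p-values measure only the spread between these libraries. The KO removes a distal element near Lrrc32, which encodes GARP, a receptor for latent TGF-beta, and which lies on another chromosome than the 5 genes.

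The libraries other than KO Treg replicate 2 held 21269 to 27605 peaks each, and that one held 5262. It had a peak in 3 of the 184 regions, against 77 to 102 in the other Treg libraries and 85 to 109 in the Tconv libraries, so each result that rests on Treg is given with and without it. The lists hold no read counts, and depth is unknown. A peak that is absent from a list may stand for fewer cells with open chromatin or for weaker opening in each cell, and these cannot be told apart. Peaks carry no gene names and no annotation of their build was used, so Foxp3 and other markers that define the sorted cells were not checked, and promoters, exons and introns were not assigned.

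The 5 proteins act at different levels of the naive programme. Tcf7 and Lef1 encode TCF1 and LEF1, HMG-box factors that bind the same short core, work with beta-catenin at Wnt targets and are needed to build and keep naive and memory T cells. Satb1 encodes a nuclear organiser that ties distant regulatory DNA together in thymocytes, and Foxp3 is known to repress it in Treg. Bach2 encodes a bZIP repressor that restrains effector genes and stabilises Treg, and Foxp1 encodes a forkhead repressor that enforces quiescence of naive T cells and shares DNA motifs with Foxp3.

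The sequence just before the annotated start was taken for 2 of the genes, Lef1 and Satb1, because these had the largest deficits in Treg described next and the entry begins at the gene's own outermost start. Both are 250 bases from RefSeq on GRCm38.p6, and the peaks are on NCBIM37, so no peak could be placed on them. Capitals mark the TCF/LEF core searched, CTTTG or its reverse complement CAAAG, on either strand. The Lef1 stretch lies at chr3:131110047-131110296 on the plus strand and the Satb1 stretch at chr17:51833291-51833540 on the minus strand.
Lef1: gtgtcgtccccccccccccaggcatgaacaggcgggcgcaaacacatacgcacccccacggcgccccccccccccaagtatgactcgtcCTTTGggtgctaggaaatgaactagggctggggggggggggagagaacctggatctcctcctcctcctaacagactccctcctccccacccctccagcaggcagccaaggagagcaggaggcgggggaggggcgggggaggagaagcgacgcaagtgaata
Satb1: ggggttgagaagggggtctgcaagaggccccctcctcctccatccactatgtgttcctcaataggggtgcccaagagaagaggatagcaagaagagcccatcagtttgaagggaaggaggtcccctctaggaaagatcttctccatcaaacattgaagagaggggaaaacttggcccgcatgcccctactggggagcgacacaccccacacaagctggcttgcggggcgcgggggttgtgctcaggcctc
The Lef1 stretch holds the core once and the Satb1 stretch not at all. Among the 15 RefSeq starts listed for the 5 genes, the core was present before 4 of 4 at Lef1, 2 of 5 at Satb1, 1 of 1 at Bach2, 0 of 2 at Tcf7 and 2 of 3 at Foxp1. It was present in 48.6% of 32851 such stretches over all genes, so a match of this short core describes the letters and no more.

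Lef1, which encodes LEF1, had the widest gap between the cell types. A peak was present in 11, 1 and 14 of its 31 regions in KO Treg and in 12, 14 and 9 in WT Treg, against 20, 20 and 17 in KO Tconv and 18, 19 and 14 in WT Tconv. The Treg libraries lay at or below 14 regions and the Tconv libraries at or above 14, so the groups met at one value. The mean was 10.2 ± 4.88 in Treg and 18.0 ± 2.28 in Tconv (SD, n = 6 each), a difference of −7.83 (two-sided exact permutation test within genotype, p = 0.01). With KO Treg replicate 2 left out, Treg averaged 12 ± 2.12 (n = 5) and the difference was −6 (exact permutation p = 0.01).

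Tcf7, which encodes TCF1, had a smaller gap in the same direction. Its 22 regions had a peak 10, 0 and 9 times in KO Treg and 10, 9 and 8 times in WT Treg, against 13, 9 and 12 times in KO Tconv and 13, 13 and 11 times in WT Tconv. The groups overlapped, since KO Tconv replicate 2 had 9. The mean was 7.67 ± 3.83 in Treg and 11.8 ± 1.60 in Tconv (SD, n = 6 each), a difference of −4.17 (exact permutation p = 0.02). Without KO Treg replicate 2, Treg averaged 9.20 ± 0.837 (n = 5) and the difference was −2.63 (exact permutation p = 0.03).

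Satb1, the chromatin organiser, leaned the same way. Its 35 regions had a peak 9, 0 and 11 times in KO Treg and 12, 18 and 12 times in WT Treg, against 16, 18 and 21 times in KO Tconv and 15, 17 and 16 times in WT Tconv. WT Treg replicate 2, with 18, was the 1 Treg library inside the Tconv range. The mean was 10.3 ± 5.89 in Treg and 17.2 ± 2.14 in Tconv (SD, n = 6 each), a difference of −6.83 (exact permutation p = 0.02), and −4.77 without KO Treg replicate 2 (exact permutation p = 0.04). The difference was −3.17 with stricter peaks (exact permutation p = 0.09) and −5.17 when peaks had to cover 50% of a region (exact permutation p = 0.055), so the Satb1 call did not hold under either.

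Bach2 and Foxp1 did not show such a gap. Bach2 regions had a peak 27, 2 and 25 times in KO Treg and 24, 28 and 23 times in WT Treg, against 28, 26 and 30 times in KO Tconv and 24, 22 and 23 times in WT Tconv. Without KO Treg replicate 2, Treg averaged 25.4 ± 2.07 (SD, n = 5) and Tconv 25.5 ± 3.08 (SD, n = 6), a difference of −0.1, and it was −4 with all 12 libraries (exact permutation p = 1 and 0.62). Foxp1 regions had a peak 25, 0 and 29 times in KO Treg and 25, 33 and 25 times in WT Treg, against 32, 21 and 24 times in KO Tconv and 27, 26 and 21 times in WT Tconv. The Foxp1 difference was −2.33 with all 12 libraries and 2.23 without KO Treg replicate 2 (exact permutation p = 0.815 and 0.405), so its sign turned on that library.

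**Figure D1:**
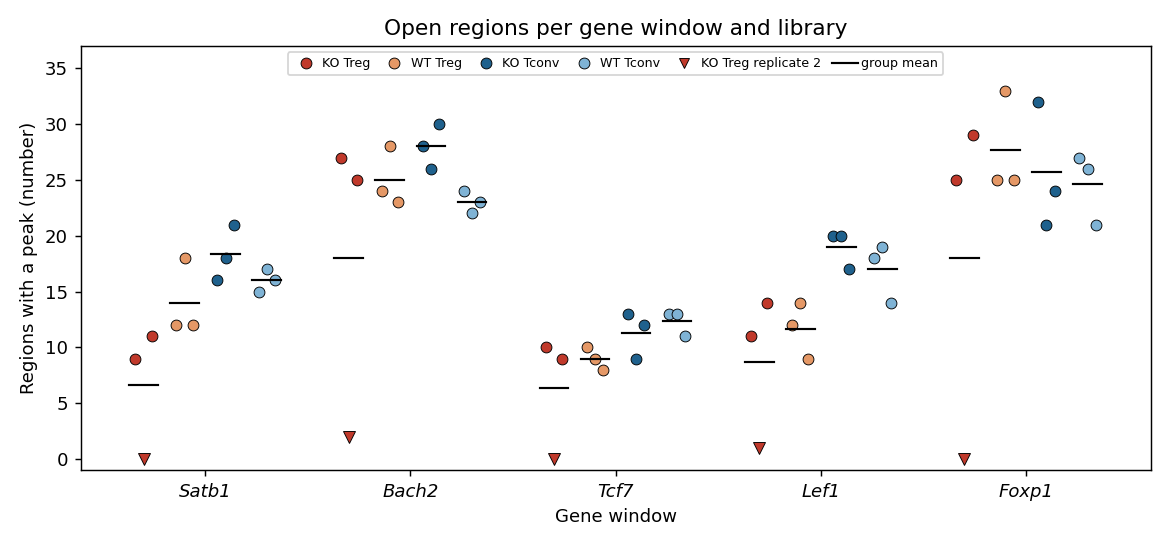
Number of open regions with a peak (vertical axis) in each gene's stretch (horizontal axis), 1 point per library, with a line at each group's mean; the triangle is KO Treg replicate 2. At Lef1 the Treg libraries lie at 14 or below and the Tconv libraries at 14 or above, whereas the points of the cell types overlap at the other 4 genes.

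These p-values were unadjusted, and an unadjusted p under 0.05 for fewer regions in Treg was not rare along the genome. The same count and test in 1769 tiles of 400 kb that held at least 10 regions gave fewer regions in Treg, at an exact permutation p under 0.05, in 15.8% of tiles and more in 1.92%. Without KO Treg replicate 2 these shares were 12.6% and 21.4% of 1759 tiles. By size, the difference per tile had a median of −1 and a 5th percentile of −4.83 with all 12 libraries. Lef1 and Satb1 lay below that 5th percentile and Tcf7 above it. Without KO Treg replicate 2 the median was 0.267 and the 5th percentile −3.43, with Lef1 and Satb1 again below and Tcf7 above. Adjusted over all tiles with the Benjamini-Hochberg method, the exact permutation p was 0.14 for Lef1, 0.167 for Satb1, 0.167 for Tcf7, 1 for Bach2 and 1 for Foxp1. Without KO Treg replicate 2 the adjusted exact permutation p was 0.0536 for Lef1, 0.101 for Tcf7, 0.124 for Satb1, 1 for Bach2 and 0.579 for Foxp1. None of the 5 passed 0.05 after that adjustment. With all 12 libraries no tile passed either, the smallest adjusted exact permutation p being 0.105, so that outcome cannot set the 5 genes apart. Without KO Treg replicate 2, 235 of the 1759 tiles passed. The stretches of the 5 genes ran from 140 to 750 kb, so the tiles match them in size only roughly.

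Region by region, the lean was seen most at Lef1. With KO Treg replicate 2 left out, the share of libraries with a peak was lower in Treg for 16 and higher for 3 of the 26 compared Lef1 regions, 61.5% and 11.5%. It was lower in Treg for 11 and higher for 4 of 23 at Satb1, and lower for 5 and higher for 3 of 14 at Tcf7. Bach2 was near balance, with 8 lower and 6 higher of 31, and so was Foxp1, with 15 lower and 16 higher of 38. Over the 5 genes 41.7% of 132 regions were lower in Treg and 24.2% higher, beside 24.8% lower and 30.2% higher among all 32787 compared regions of the series. Regions with few libraries entered through the cell type that had them, so these shares describe the lists and carry no test.

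The 5 genes also differed in how widely their regions were shared. A peak was present in at least 11 of the 12 libraries in 17 of 31 compared regions at Bach2 (54.8%), 6 of 14 at Tcf7 (42.9%), 8 of 23 at Satb1 (34.8%), 7 of 26 at Lef1 (26.9%) and 7 of 38 at Foxp1 (18.4%), 45 of 132 in all (34.1%). The share over all compared regions was 45.1%. Regions lay densest at Tcf7, at 15.7 per 100 kb, and thinnest at Foxp1, at 6.93 per 100 kb, with Lef1 at 10.3, Satb1 at 8.75 and Bach2 at 7.33. All 12 libraries shared 3 regions, of which 2 were at Bach2 and 1 at Lef1. These were the only 3 members in which KO Treg replicate 2 had a peak, so that library capped this count.

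**Figure D2:**
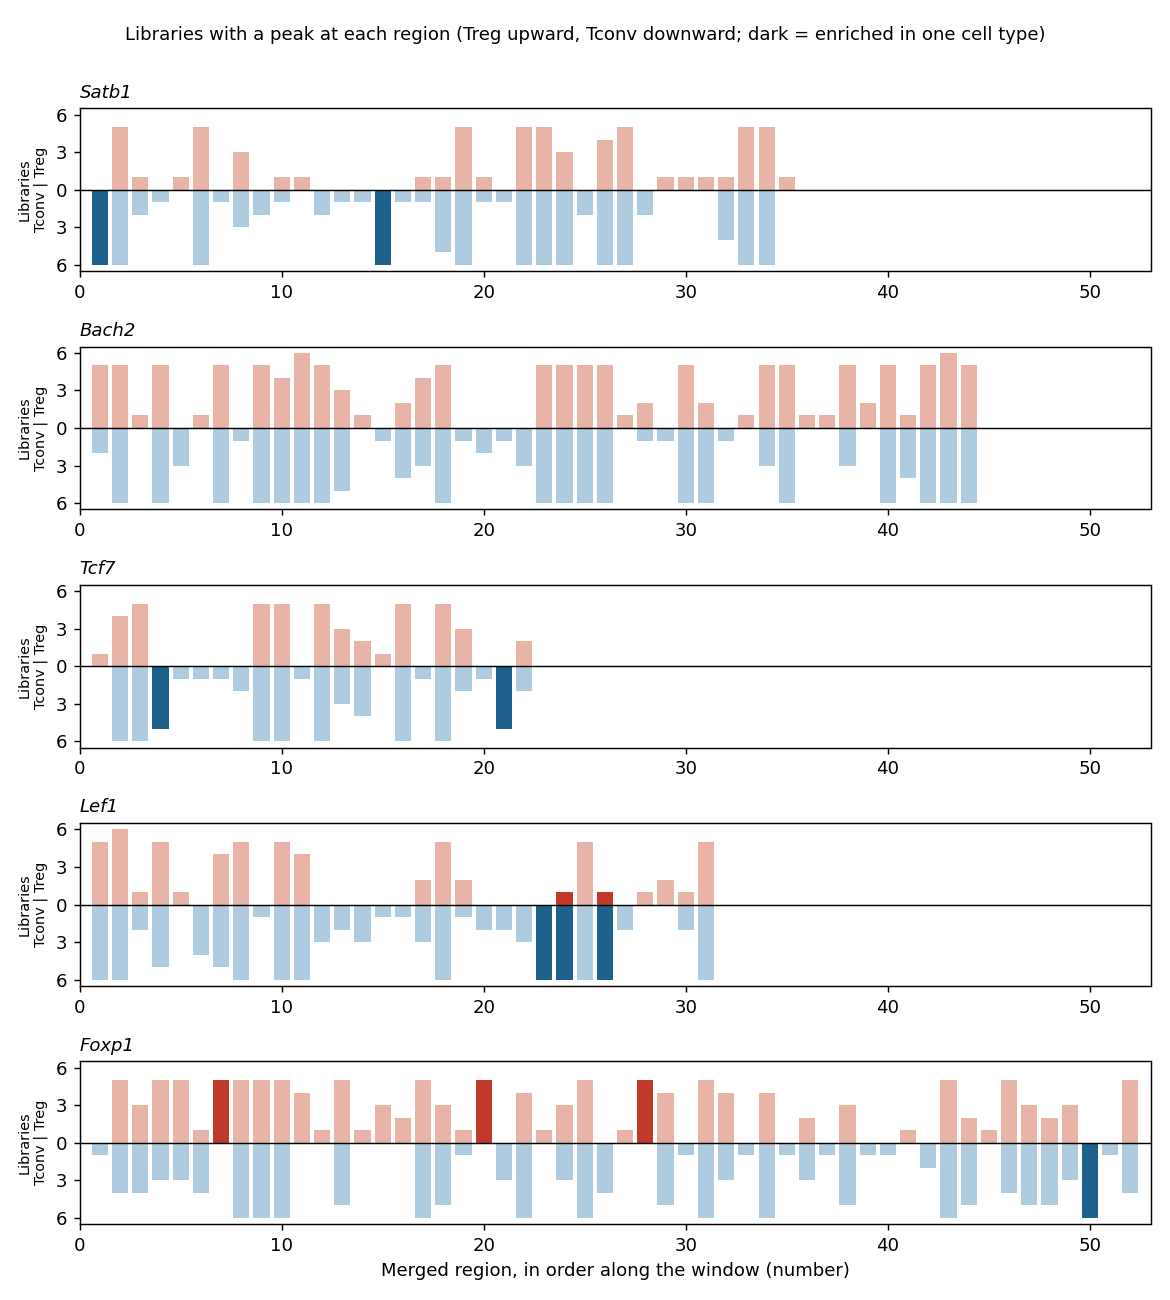
Number of libraries with a peak (vertical axis, Treg upward and Tconv downward, 6 each) at each of the 184 regions in order along the stretch (horizontal axis, region number). Bars reach both ways along most of Bach2. Downward bars without an upward one stand at 12 of 31 Lef1, 9 of 22 Tcf7, 12 of 35 Satb1, 12 of 52 Foxp1 and 9 of 44 Bach2 regions. Upward bars without a downward one stand at 3 Lef1, 2 Tcf7, 6 Satb1, 12 Foxp1 and 8 Bach2 regions. These counts include regions seen in 1 library, and the Treg side includes KO Treg replicate 2, whose list was short. No share over the series stands beside them. Dark bars mark the 3 Treg-enriched regions, all at Foxp1, and the 8 Tconv-enriched ones.

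A region was called enriched in a cell type when at least 5 more of its 6 libraries had a peak. Of the 132 compared regions, 3 were Treg-enriched (2.27%, beside 3.2% of all 32787 compared regions) and 8 were Tconv-enriched (6.06%, beside 3.55%), 11 in all beside 6.75% for either direction over the series. Tconv-enriched regions were at Lef1 (3), Satb1 (2), Tcf7 (2) and Foxp1 (1), and Bach2 had none. By Fisher's exact test with Benjamini-Hochberg adjustment over all compared regions, 0 regions of the series passed 0.05 (0.0%), the smallest adjusted p was 0.123, and 2213 (6.75%) had an unadjusted p under 0.05, among them these 11. The calls are therefore counts of libraries and not significant one by one.

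When KO Treg replicate 2 was dropped and 4 more libraries were enough for a call, 4 of the members were Treg-enriched (3.03%, beside 6.21% over the series) and 12 were Tconv-enriched (9.09%, beside 6.4%). The addition in Treg was at Foxp1 (chr6:99138117-99139168), and those in Tconv were at Satb1 (chr17:51944464-51945960), Bach2 (chr4:32481644-32482264), Lef1 (chr3:130796707-130796947) and Foxp1 (chr6:99272347-99272958). Within WT alone, 3 of 3 against 0 of 3 libraries, 5 members were Treg-enriched (3 at Foxp1 and 2 at Bach2, 3.79%, beside 5.73%) and 6 Tconv-enriched (4.55%, beside 2.94%). Within KO alone, where 1 of the 3 Treg libraries is the short one, 0 were Treg-enriched (beside 0.156%) and 9 Tconv-enriched (beside 4.71%).

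At Lef1, region 24 (chr3:130902545-130903199, NCBIM37, 655 bp) was the strongest of the Tconv-enriched regions. Every Tconv library had a peak there, and 1 Treg library, KO Treg replicate 3. Strength within a library is given as the percentile of the peak's −log10 p, the authors' own value, among all peaks of that library; ranks from lists of unequal length are no measure of change. Lef1 region 24 stood at percentile 32.3 in KO Treg replicate 3, at 59.1, 61.2 and 67.2 in KO Tconv and at 46.8, 63.5 and 71.9 in WT Tconv. It met the call under stricter peaks, under equal numbers of top peaks and under 50% coverage.

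Both other Tconv-enriched Lef1 regions were weaker and held less well. Region 23 missed the call with 50% coverage, and region 26 missed it with stricter peaks and with equal numbers of top peaks. Lef1 region 23 (chr3:130893487-130894553) had a peak in 0 Treg and 6 Tconv libraries, at percentiles of 7.66 to 52.0. Lef1 region 26 (chr3:130917620-130918069) had a peak in WT Treg replicate 2, at percentile 10.3, and in all 6 Tconv libraries, at 5.28 to 36.6. These 3 regions lie close together on the chromosome, with Lef1 region 25 between them open in 5 Treg and 6 Tconv libraries.

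The strongest Lef1 region was shared by both cell types. Lef1 region 2 (chr3:130722070-130723078) had a peak in all 12 libraries, at percentiles of 86.5, 32.8 and 84.3 in KO Treg and 87.0, 87.0 and 88.9 in WT Treg, against 79.1, 60.2 and 76.8 in KO Tconv and 78.8, 87.3 and 77.7 in WT Tconv. The low Treg value was that of KO Treg replicate 2. Lef1 region 8 (chr3:130814823-130816288), the widest at 1466 bp, averaged percentile 41.9 ± 7.59 in Treg (SD, n = 5) and 25.8 ± 9.91 in Tconv (SD, n = 6), and every Treg value lay above every Tconv value. Both the strongest and the widest Lef1 region were therefore open in both cell types.

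Tcf7 had 2 Tconv-enriched regions, and neither had a peak in any Treg library. Tcf7 region 4 (chr11:52054181-52054847) had percentiles of 18.2, 17.0 and 23.1 in KO Tconv and 11.8 and 4.59 in 2 of the 3 WT Tconv libraries. Tcf7 region 21 (chr11:52154523-52155146) had 36.3 and 5.59 in 2 of the 3 KO Tconv libraries and 38.8, 50.8 and 23.2 in WT Tconv. Each was at 5 of 6 Tconv libraries, the least the call allows, and neither met it under stricter peaks, equal numbers of top peaks or 50% coverage. The strongest Tcf7 region, region 16 (chr11:52112980-52113602), was shared, at percentile 67.5 ± 11.0 in Treg (SD, n = 5) and 62.1 ± 9.43 in Tconv (SD, n = 6). The widest, region 3 (chr11:52044929-52046581, 1653 bp), was shared too, at 31.2 ± 10.5 in Treg (SD, n = 5) and 36.8 ± 11.4 in Tconv (SD, n = 6).

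Satb1 had 2 Tconv-enriched regions with a peak in 0 of 6 Treg and 6 of 6 Tconv libraries. Satb1 region 1 (chr17:51871960-51872475) had percentiles of 10.9, 36.5 and 20.0 in KO Tconv and 19.4, 37.8 and 15.0 in WT Tconv. Satb1 region 15 (chr17:51939600-51940010) had 17.1, 14.4 and 6.59 in KO Tconv and 33.5, 26.6 and 20.4 in WT Tconv. For each, Fisher's exact p was 0.00216 and the adjusted p 0.123. Both were in the lower part of every Tconv list, and both met the call with equal numbers of top peaks but not with stricter peaks or 50% coverage.

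The strongest Satb1 region ran the other way in rank. Satb1 region 23 (chr17:51970997-51973608), also the widest at 2612 bp, had percentiles of 70.6 and 68.7 in 2 of the 3 KO Treg libraries and 61.8, 78.3 and 73.5 in WT Treg, against 62.8, 63.3 and 39.1 in KO Tconv and 37.3, 66.3 and 42.3 in WT Tconv. The mean was 70.6 ± 6.10 in Treg (SD, n = 5) and 51.8 ± 13.6 in Tconv (SD, n = 6), with overlap between the cell types. Ranked by the authors' fold over background in place of −log10 p, its mean percentile over the libraries was 16.7 and not 60.4, so its place in the list depends on the value ranked.

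Foxp1 held every Treg-enriched region of the 5 genes. Foxp1 region 7 (chr6:99000223-99000972), Foxp1 region 20 (chr6:99224227-99224948) and Foxp1 region 28 (chr6:99290201-99291318) each had a peak in the 5 Treg libraries other than KO Treg replicate 2 and in 0 of 6 Tconv libraries. Foxp1 region 7 had percentiles of 74.5 and 27.2 in KO Treg and 6.36, 57.3 and 69.7 in WT Treg. Foxp1 region 20 had 55.3 and 35.8 in KO Treg and 14.9, 20.3 and 59.0 in WT Treg, and Foxp1 region 28 had 36.9 and 25.1 in KO Treg and 18.3, 36.9 and 4.45 in WT Treg. The spread within Treg was wide, and under stricter peaks each was open in 4 or fewer Treg libraries and missed the call. All 3 also missed it with equal numbers of top peaks, and with 50% coverage only Foxp1 region 7 met it. Regions 7 and 20 under stricter peaks, and regions 7 and 28 with equal numbers of top peaks, stood 4 libraries apart. That is the limit used when KO Treg replicate 2 is left out. Region 28 under stricter peaks and region 20 with equal numbers of top peaks stood 3 apart.

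One Foxp1 region was Tconv-enriched. Foxp1 region 50 (chr6:99436068-99436690) had a peak in 0 of 6 Treg libraries, and in Tconv it stood at percentiles of 48.4, 45.6 and 9.93 in KO and 5.94, 28.8 and 45.8 in WT. It stood 4 libraries apart with stricter peaks and with equal numbers of top peaks and 3 apart with 50% coverage, so it missed the call under each of these.

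**Figure D3:**
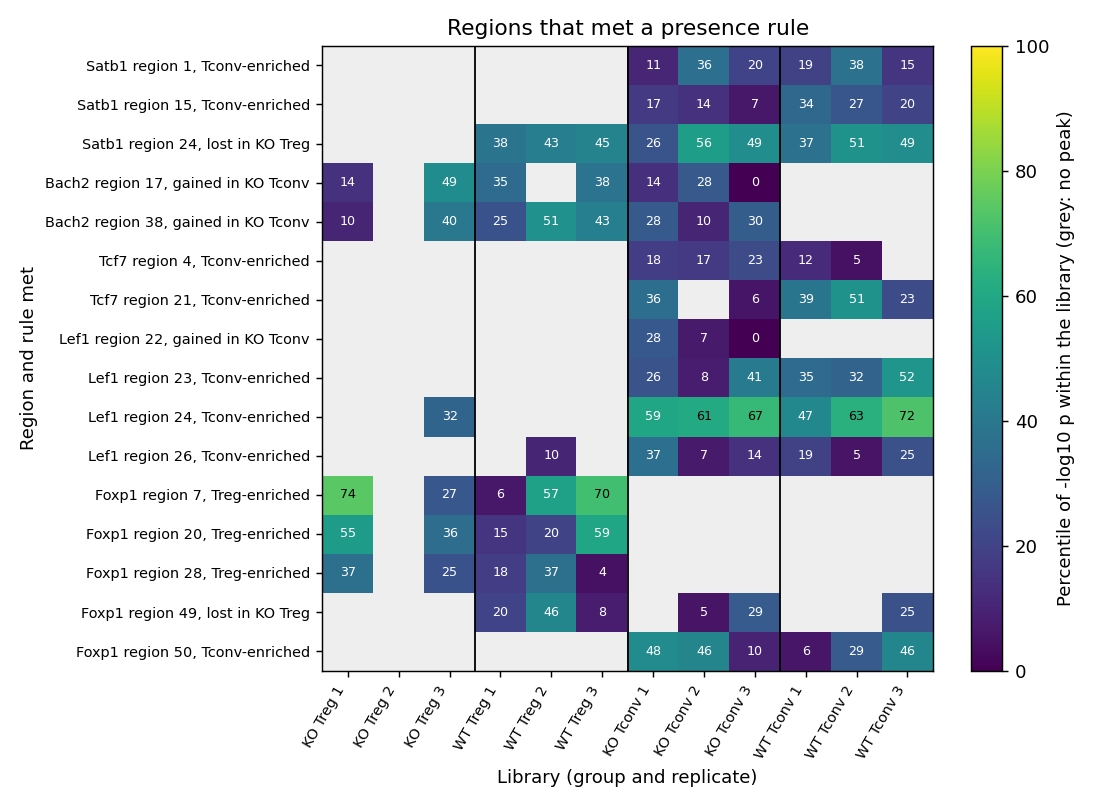
Percentile of the peak's −log10 p within its library (colour and number; grey, no peak) for the 16 regions that met a presence call (vertical axis) in the 12 libraries (horizontal axis). Tconv-enriched regions of Satb1, Lef1 and Foxp1 fill the Tconv columns, those of Tcf7 fill 5 of these 6, and 3 Foxp1 regions fill the Treg columns other than KO Treg 2.

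In regions open in both cell types, ranks differed in both directions. KO Treg replicate 2 was left out, and a region had to be open in 2 or more libraries of each cell type. Then the median difference in mean percentile, Treg minus Tconv, was 6.68 over 25 Bach2 regions, 0.731 over 26 Foxp1 regions, −0.193 over 11 Satb1 regions, −3.42 over 11 Lef1 regions and −5.66 over 11 Tcf7 regions. Bach2 had 4 regions in which every Treg value lay above every Tconv value and 1 in which every one lay below. Foxp1 had 2 of each kind, Tcf7 had 2 below, Lef1 had 1 above and Satb1 had none. Both Tcf7 regions had only 2 Treg values, with which values separate easily. The share of such regions and the median over the whole series were not computed, so these counts and medians describe the 5 genes only.

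Bach2 region 34 (chr4:32492161-32493333) was the clearest of the regions whose values did not overlap. Its percentiles were 50.4 and 51.8 in KO Treg and 43.0, 37.1 and 42.8 in WT Treg, against 1.33 and 4.19 in 2 KO Tconv libraries and 8.64 in 1 WT Tconv library, with no peak in the other 3 Tconv libraries. Bach2 region 1 (chr4:32213534-32214271) had 53 and 60.1 in KO Treg and 44.4, 57.1 and 71.1 in WT Treg, against 35.1 and 11.3 in 2 KO Tconv libraries and no peak in WT Tconv. Bach2 region 2 (chr4:32235143-32236690), among the strongest of the gene, averaged 92.9 ± 1.19 in Treg (SD, n = 5) and 83.4 ± 5.37 in Tconv (SD, n = 6). Bach2 region 23 (chr4:32421690-32423301) was lower in Treg, at 47.1 ± 6.12 (SD, n = 5), than in Tconv, at 62.2 ± 9.16 (SD, n = 6). Its highest Treg value, 53.42, lay just below its lowest Tconv value, 53.44.

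At Foxp1 the same contrast appeared within one gene. Foxp1 region 2 (chr6:98942441-98943978) averaged percentile 48.8 ± 10.7 in Treg (SD, n = 5) and 15.0 ± 3.33 in 4 Tconv libraries, and Foxp1 region 8 (chr6:99007019-99007713) averaged 54.3 ± 9.31 in Treg (SD, n = 5) and 24.4 ± 11.4 in Tconv (SD, n = 6). Foxp1 region 29 (chr6:99300366-99300880) was the reverse, at 12.7 ± 6.14 in 4 Treg libraries and 54.1 ± 13.2 in 5 Tconv libraries (SD). Foxp1 region 34 (chr6:99338208-99339693) averaged 13.6 ± 5.5 in 4 Treg libraries and 38.6 ± 8.99 in 6 Tconv libraries (SD). These regions were named after their values were seen, and the ranks were not tested.

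The strongest region of all 5 genes did not separate the cell types. Bach2 region 43 (chr4:32701883-32702621) had percentiles of 99.0, 96.6 and 99.5 in KO Treg and 98.4, 99.2 and 98.7 in WT Treg, against 99.0, 99.5 and 99.6 in KO Tconv and 99.0, 99.4 and 99.3 in WT Tconv. It was 1 of the 3 members that KO Treg replicate 2 still held. The strongest Foxp1 region, region 25 (chr6:99259194-99260067), was shared as well, at 68.2 ± 9.0 in Treg (SD, n = 5) and 75.1 ± 7.17 in Tconv (SD, n = 6). The widest Bach2 and Foxp1 regions ranked lower. Bach2 region 35 (chr4:32510575-32513688, 3114 bp) stood at 9.13 to 35.1 in 5 Treg libraries and 13.4 to 51.7 in 6 Tconv libraries, and Foxp1 region 52 (chr6:99471101-99473535, 2435 bp) at 4.46 to 17.4 in 5 Treg libraries and 0.326 to 5.16 in 4 Tconv libraries.

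**Figure D4:**
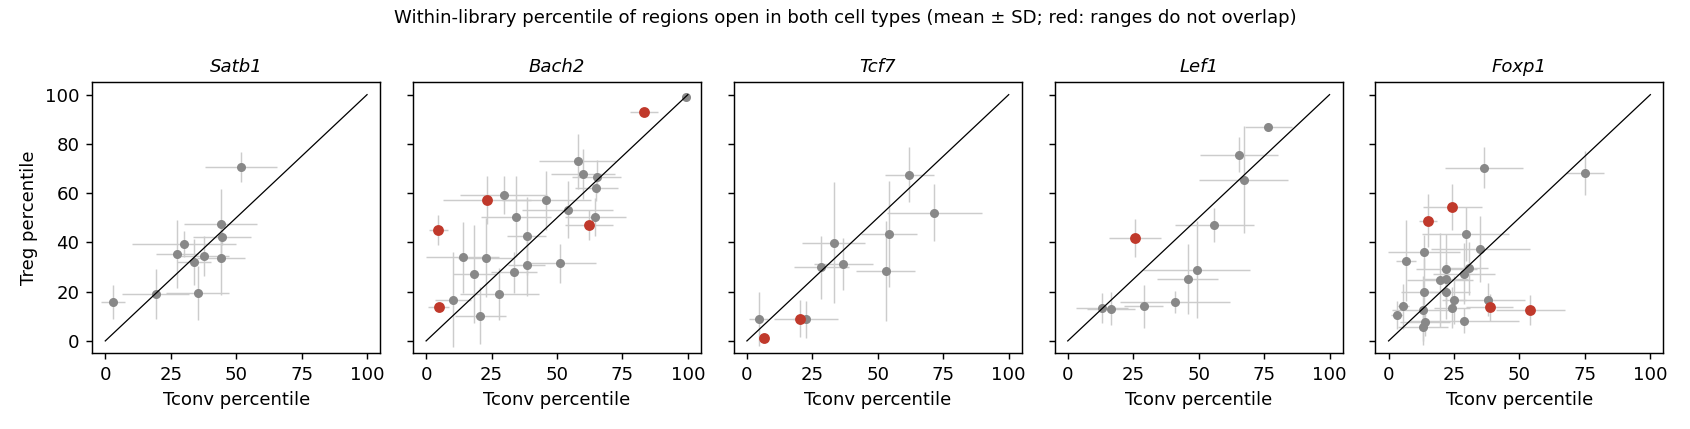
Mean percentile of −log10 p within a library, Treg (vertical axis) and Tconv (horizontal axis), for regions open in 2 or more libraries of each cell type, without KO Treg replicate 2; bars are SD and the line marks equal values. Red points have Treg and Tconv values that do not overlap, as at Bach2 region 34 (45.0 in Treg and 4.72 in Tconv), and Satb1 has none.

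The study asked what the Lrrc32+ 70k enhancer KO does to chromatin, and at these 5 genes few regions separated KO from WT. A region was called lost when all 3 WT and 0 of 3 KO libraries of a cell type had a peak, and gained in the opposite case. In Treg, 2 of the 132 compared regions were lost (1.52%, beside 0.973% over the series) and 0 gained (beside 0.0305%). In Tconv, 0 were lost (beside 0.189%) and 3 gained (2.27%, beside 0.793%). Without KO Treg replicate 2, 2 were lost in KO Treg (beside 0.977%), 2 were gained in KO Treg (1.52%, beside 1.08%), 0 were lost in KO Tconv (beside 0.189%) and 3 were gained in KO Tconv (beside 0.797%). Those gained in KO Treg were at Bach2 (chr4:32631970-32632398) and Lef1 (chr3:130862304-130863374), each in both remaining KO Treg libraries and in 0 of 3 WT Treg libraries. With 3 libraries a group, the smallest p of an exact test is 0.1, so none of these calls can pass 0.05.

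Satb1 region 24 (chr17:51994334-51995057, 724 bp) was lost in KO Treg. It had no peak in KO Treg and percentiles of 38.4, 42.8 and 44.8 in WT Treg, and it was open in all 6 Tconv libraries at 25.9, 56.1 and 49.0 in KO Tconv and 37.1, 51.2 and 48.8 in WT Tconv. The KO Treg libraries other than replicate 2 also lacked it, and it met the call under stricter peaks, equal numbers of top peaks and 50% coverage. Foxp1 region 49 (chr6:99435159-99435542) was also lost in KO Treg, with percentiles of 20.2, 45.8 and 8.08 in WT Treg, but it had a peak in 2 of 3 KO Tconv and 1 of 3 WT Tconv libraries. It met the call with equal numbers of top peaks and with 50% coverage and missed it under stricter peaks.

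The 3 regions gained in KO Tconv were at Bach2 and Lef1. Bach2 region 17 (chr4:32374765-32375532) had percentiles of 13.7, 28.0 and 0.0831 in KO Tconv and no peak in WT Tconv, and it was also open in 4 Treg libraries. Bach2 region 38 (chr4:32568478-32569108) had 28.2, 10.4 and 29.6 in KO Tconv, no peak in WT Tconv and a peak in 5 Treg libraries. Lef1 region 22 (chr3:130874111-130874458) had 27.5, 7.23 and 0.21 in KO Tconv and no peak in WT Tconv or in any Treg library. All 3 sat low in the KO Tconv lists, and none met the call under stricter peaks or equal numbers of top peaks.

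The number of open regions per gene was also set between the genotypes. In Tconv, Bach2 had a peak in 28, 26 and 30 regions in KO and in 24, 22 and 23 in WT, groups that did not overlap, with a difference of 5 (exact permutation p = 0.1, the smallest possible). With equal numbers of top peaks that difference was −0.333, so its sign depended on that setting. In Treg, Satb1 had a peak in 9, 0 and 11 regions in KO and in 12, 18 and 12 in WT, which did not overlap either, with a difference of −7.33 (exact permutation p = 0.1), and −4 without KO Treg replicate 2 (exact permutation p = 0.3). How often other stretches of the genome separate KO from WT in this way was not counted. The other KO minus WT differences had an exact permutation p of 0.3 to 1.0, and in Treg those of Bach2, Tcf7 and Lef1 changed sign when KO Treg replicate 2 was left out, to 1, 0.5 and 0.833.

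Whether the gap between Treg and Tconv itself differed by genotype was tested for each gene over the number of regions, permuting genotype over the 6 pairs of Treg and Tconv libraries with the same genotype and number. The labels do not say whether these numbers pair libraries, and the weak correlations between libraries cannot decide it. The p-values therefore rest on an assumed pairing, whereas the difference itself over all 12 libraries does not. The difference of differences, KO minus WT, was −9.67 at Satb1 (exact permutation p = 0.1), −12 at Bach2 (p = 0.1 by the same exact test), −10.7 at Foxp1 (exact p = 0.3), −5 at Lef1 (exact p = 0.4) and −1.67 at Tcf7 (exact p = 1.0). With the pair of KO Treg replicate 2 and KO Tconv replicate 2 both left out, these were −6.5, −5, −4, −0.667 and 0.333, with exact permutation p of 0.1, 0.3, 0.6, 0.8 and 1.0 in that order of genes. In all, 20 tests were made over the 5 genes, and their p-values stand unadjusted except over the tiles above.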

How the data were processed

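ATAC-seq peak lists of 12 libraries (100000 sorted cells each) were used, 1 deposited list of broad peaks per library. Groups and replicate numbers came from the sample titles. The submitters' processing notes name the build NCBIM37 and the tools DESeq2, DiffBind, MACS2, Bowtie2 and Trim Galore (0.4.4), without saying what each did. Other versions, filters and any shift of cut sites: not given in the sources used here. The authors' peak caller gave every deposited peak a score, a fold ratio and 2 significance values, −log10 p and −log10 q. All are values of 1 peak within 1 list, p grows with depth, and depth is unknown. Libraries were therefore compared by presence of a peak, and −log10 p was used only to rank peaks within a list. A region whose signal lay just under the caller's limit reads as absent.

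Peaks of all libraries were merged genome-wide where they overlapped or touched, and an overlap of 1 bp with a peak sufficed for a library to have a region. Members were the merged regions overlapping stretches on chromosome 17 (51700000 to 52100000, Satb1), 4 (32150000 to 32750000, Bach2), 11 (52020000 to 52160000, Tcf7), 3 (130700000 to 131000000, Lef1) and 6 (98800000 to 99550000, Foxp1), numbered along each stretch. Numbers of regions were compared with two-sided exact permutation tests over libraries, cell type being permuted within genotype (400 labelings). Regions were compared with Fisher's exact test, adjusted with the Benjamini-Hochberg method over the 32787 regions seen in 2 or more libraries. Regions named were those meeting a presence call and, per gene, the region of highest mean percentile and the widest; those with separated ranks were named after their values were seen. The members and lists were chosen with earlier results of these data known. The genome tiles were added after the values were seen. The alternatives tried were a −log10 q of 5 or more (stricter peaks), equal numbers of top peaks (21269), 50% coverage, gaps of up to 200 bp joined, regions per 10000 peaks, other limits of the calls, a replicate block and each library left out. Simulated presence data with known changes were used to test the calls. A planned list of other quiescence genes and the markers of the cell types were not analysed here, since no annotation of the build was used. Python 3.11.15, numpy 2.4.6, pandas 2.3.3, scipy 1.17.1 and matplotlib 3.10.9 were used. Coordinates are 1-based.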

Additional observations from a re-analysis of the deposited data

Results flagged for a closer look

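KO Treg replicate 2 stood apart from the other 5 Treg libraries in the number of open regions at 3 genes. It had a peak in 2 Bach2 regions, against 23 to 28 in the other Treg libraries. It had a peak in 0 Tcf7 regions, against 8 to 10, and in 0 Foxp1 regions, against 25 to 33. In each case the gap to the nearest of the others, divided by the range, exceeded Dixon's critical value for 6 libraries. KO Treg replicate 2 was also the lowest Treg library at Satb1 (0, against 9 to 18) and Lef1 (1, against 9 to 14), where that ratio did not exceed it. There were 10 such comparisons, and chance passes about 1 in 20 of them. The same library held 5262 peaks over the genome, against 21269 to 27605 in the other 11 libraries; the part of that short list in these values was not tested.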

How the results depend on the processing

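The number of open regions at Lef1 and Tcf7 stayed lower in Treg than in Tconv, at an unadjusted exact permutation p under 0.05, under stricter peaks, equal numbers of top peaks, 50% coverage, joined gaps, scaling per 10000 peaks and each library left out in turn. In 11 libraries, a choice made after seeing the data, equal numbers of top peaks gave differences of −6.17 at Lef1, −2.7 at Tcf7 and −3.47 at Satb1 (exact permutation p = 0.005, 0.025 and 0.01). Same-numbered libraries of 2 groups correlated at −0.0283 to 0.0608, and different-numbered ones at −0.0425 to 0.0447. These ranges overlap and cannot decide whether the numbers pair libraries, which the labels do not say. With the replicate block the differences were −7.83 at Lef1 and −4.17 at Tcf7 (exact sign-flip p = 0.0312 each, the smallest possible) and −6.83 at Satb1 (exact sign-flip p = 0.0625). Satb1 also missed the threshold with stricter peaks (−3.17) and 50% coverage (−5.17). Treg minus Tconv changed sign at Foxp1 with 50% coverage (1.33) and per 10000 peaks in 11 libraries (0.422), and at Bach2 with equal top peaks in 11 libraries (0.7). KO minus WT in Tconv changed sign with stricter peaks at Satb1 (−0.333) and Lef1 (−0.667), with equal top peaks at Satb1 (−1.33), Bach2 (−0.333), Lef1 (−1) and Foxp1 (−1.33), and per 10000 peaks at Foxp1 (−0.277). Tconv-enriched members numbered 3 with stricter peaks. Treg-enriched members numbered 1 with equal top peaks (none of the 3 named), 5 in WT alone and 0 in KO alone. Members gained in KO Tconv numbered 0 with stricter peaks and 0 with equal top peaks, in 12 and in 11 libraries. At a limit of at least 2 of 3 libraries against 0, KO Treg had 5 lost members and 2 gained ones, and KO Tconv had 2 lost and 7 gained. No share over all compared regions stands beside the counts at this limit, so they describe the members only. Leaving out 1 library at a time gave KO minus WT in Treg of −11.5 to 1 at Bach2, −4.5 to 0.5 at Tcf7 and −5.67 to 0.833 at Lef1, and KO minus WT in Tconv of −1.83 to 0.167 at Tcf7 and −2.17 to 3.33 at Foxp1. It gave Treg minus Tconv of −4.37 to 2.23 at Foxp1, and, with the same-numbered library of the other cell type dropped too, a difference of differences of −2.67 to 0.333 at Tcf7. For calls between cell types the limit was also lowered to 4 libraries, which with all 12 libraries gave 4 Treg-enriched and 12 Tconv-enriched members. Counts of members then ran from 3 to 5 (Treg-enriched; 5 without KO Tconv replicate 1), 8 to 15 (Tconv-enriched; 15 without WT Treg replicate 2), 2 to 5 (lost in KO Treg; 5 when KO Treg replicate 1 was dropped), 0 to 2 (gained in KO Treg; 2 when KO Treg replicate 2 was), 0 to 2 (lost in KO Tconv; 2 without WT Tconv replicate 3) and 3 to 5 (gained in KO Tconv; 5 without KO Tconv replicate 1). The cause of these shifts was not tested. The share of all compared regions called also moved with the limit. At 5 libraries it was 3.2% (Treg-enriched) and 3.55% (Tconv-enriched). At 4 libraries without KO Treg replicate 2 it was 6.21% and 6.4%. No such share stands beside the other counts of members in this paragraph, so they do not set the members apart from the series. Depth is unknown, so a difference smaller than the spread between lists was not detectable.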

Other observations

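Foxp1 regions covered more sequence in Treg than in Tconv although their number was similar. Peaks covered 15169 and 16579 bp in KO Treg replicates 1 and 3 and 14203, 18797 and 15710 bp in WT Treg, against 14283, 9627 and 14411 bp in KO Tconv and 11776, 12713 and 7940 bp in WT Tconv. WT Treg replicate 1 was the 1 of these Treg libraries inside the Tconv range. The mean was 16092 ± 1741 bp in these Treg libraries (SD, n = 5), in 27.4 ± 3.58 regions, and 11792 ± 2586 bp in Tconv (SD, n = 6), in 25.2 ± 4.17 regions. KO Treg replicate 2 had no Foxp1 peak and is left out of these values. Bach2 leaned the same way, at 20636 ± 2052 bp in 25.4 ± 2.07 regions in these Treg libraries (SD, n = 5). In Tconv, Bach2 had 18331 ± 2824 bp in 25.5 ± 3.08 regions (SD, n = 6). At Satb1, Tcf7 and Lef1 both covered length and number of regions were lower in Treg. How often other stretches of the genome show this was not counted. Covered length moves with how much was called in each list, and the differences were not tested.

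At Bach2, peaks covered 22459, 17870 and 21208 bp in KO Tconv, against 15965, 16351 and 16133 bp in WT Tconv, and the groups did not overlap. The KO Tconv lists were also longer, at 24649 to 25283 peaks against 21269 to 24546 in WT Tconv. The part of list length in this difference was not tested, and how often other stretches separate in this way was not counted. At Lef1, covered length was 7288 ± 701 bp in Treg without KO Treg replicate 2 (SD, n = 5) and 9548 ± 1496 bp in Tconv (SD, n = 6), in 12 ± 2.12 and 18.0 ± 2.28 regions.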
